A study of Sus scrofa with 12 samples.

Results

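The S100 genes encode a family of small calcium-binding proteins, and 10 of them were examined by name in the pig heart: S100A1, S100A4, S100A6, S100A8, S100A9, S100A10, S100A11, S100A12, S100A13 and S100B. The members were found by matching the Ensembl identifiers of the count files to pig gene symbols. Of the 10, 7 had an identifier by that match, among 35682 genes in the files. S100A9, S100A13 and S100B had none and were not analysed here. S100A8 and S100A12 fell below the filter on low counts, which left 5 members that were tested: S100A1 (ENSSSCG00000031053), S100A4 (ENSSSCG00000006578), S100A6 (ENSSSCG00000021084), S100A10 (ENSSSCG00000006612) and S100A11 (ENSSSCG00000006610).

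RNA was sequenced from 12 libraries of 6 female Yorkshire pigs, a border zone and a remote zone library from each, and the pigs carry the numbers 1022, 1322, 1323, 1623, 1922 and 3622. In every animal the left anterior descending coronary artery had been occluded with a balloon for 60 min at an age of 10 to 12 weeks, and immune suppression ran from day 9 with prednisolone at 20 mg a day, mycophenolate mofetil at 500 mg a day and tacrolimus at 0.75 mg/kg a day. A thoracotomy followed on day 14, with harvest 28 days later. At the thoracotomy an animal received either fibrin glue alone or vascular organoids of human endothelial progenitor cells and smooth muscle cells. The sample labels do not say which animal received which, so no treatment comparison was made and both zones hold treated and untreated hearts, all of them immunosuppressed, and values are given per library or as lowest, median and highest. The border zone was tissue beside the infarct, chosen by position, and the remote zone came from the posterior wall of the same injured heart, so neither zone is uninjured tissue of a healthy animal.

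S100 proteins are built around a pair of EF-hands, the helix-loop-helix motif that holds calcium. Most work as dimers that open on binding calcium and then grip a partner protein, and several also leave the cell and act on receptors such as RAGE, the product of AGER, and TLR4. In the heart S100A1 is the form of the cardiomyocyte, where it acts on calcium cycling in the sarcoplasmic reticulum, while S100A4, S100A6, S100A10 and S100A11 are widely expressed in fibroblasts, vessels and immune cells. S100A8, S100A9 and S100A12 are the calgranulins of neutrophils and monocytes, and S100B is best known in glia and Schwann cells.

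The 7 members with an identifier lay in 1 cluster on chromosome 4 of the pig genome Sscrofa11.1, and S100A1 to S100A10 spanned 1265 kb. S100A1 was at chr4:96007026-96012305 on the minus strand. On the plus strand, S100A4 was at chr4:96088102-96091160 and S100A6 at chr4:96098264-96099686. S100A8 at chr4:96209670-96210603 and S100A12 at chr4:96225691-96227030 followed, and 995 kb beyond the last of the calgranulins came S100A11 at chr4:97233833-97239081 and S100A10 at chr4:97261752-97272517, with 22.7 kb between those last 2. S100A1 overlapped S100A13 on the opposite strand over 200 exonic bases, 17.4% of the exon length of S100A1. The libraries were not made to keep the strand, so reads from that stretch cannot be told apart between the genes.

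The promoters of 4 of the tested members are shown, S100A4, S100A6 and S100A10 as examples with a higher median in the border zone and S100A1 as one with a lower median. Each covers 250 bases before and 50 bases after the start of the gene in RefSeq, 5′ to 3′ on the strand of the gene (Sscrofa11.1). Capitals mark matches, on either strand, to the Sp1 motif GGGCGG. The windows are chr4:96012256-96012555 (minus strand) for S100A1 and, on the plus strand, chr4:96087852-96088151 for S100A4, chr4:96098014-96098313 for S100A6 and chr4:97261502-97261801 for S100A10.
S100A1: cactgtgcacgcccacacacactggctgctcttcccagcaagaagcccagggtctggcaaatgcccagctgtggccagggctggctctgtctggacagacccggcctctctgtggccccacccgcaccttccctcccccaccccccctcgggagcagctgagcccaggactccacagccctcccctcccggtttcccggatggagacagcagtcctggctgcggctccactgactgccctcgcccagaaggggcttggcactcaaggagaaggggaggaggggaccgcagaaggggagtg
S100A4: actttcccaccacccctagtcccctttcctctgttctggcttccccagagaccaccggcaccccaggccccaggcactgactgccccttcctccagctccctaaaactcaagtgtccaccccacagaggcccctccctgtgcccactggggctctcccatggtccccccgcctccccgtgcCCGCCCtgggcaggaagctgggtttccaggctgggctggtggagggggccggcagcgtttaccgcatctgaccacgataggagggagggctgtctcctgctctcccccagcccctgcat
S100A6: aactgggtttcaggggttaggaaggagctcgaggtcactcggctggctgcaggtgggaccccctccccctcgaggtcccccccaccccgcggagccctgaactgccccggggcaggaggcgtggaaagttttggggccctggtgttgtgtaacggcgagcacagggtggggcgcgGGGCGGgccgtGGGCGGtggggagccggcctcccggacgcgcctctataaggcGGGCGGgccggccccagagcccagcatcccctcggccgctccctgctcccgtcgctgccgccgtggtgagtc
S100A10: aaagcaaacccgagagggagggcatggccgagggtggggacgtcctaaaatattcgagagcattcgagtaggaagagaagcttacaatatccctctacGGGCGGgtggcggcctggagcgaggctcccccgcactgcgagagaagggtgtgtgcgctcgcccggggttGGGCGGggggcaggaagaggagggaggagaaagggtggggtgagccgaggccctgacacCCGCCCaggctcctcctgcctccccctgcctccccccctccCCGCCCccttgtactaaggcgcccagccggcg

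The S100A6 window held 73% G and C with 27 CpG pairs and 3 Sp1 matches. The S100A10 window held 67.3% with 21 CpG pairs and 4 Sp1 matches. Both were above the median of 20653 pig promoters of the same length, which was 58% G and C and 15 CpG pairs. S100A4, with 67% G and C, had 8 CpG pairs and 1 Sp1 match, and S100A1, with 67.7%, had 9 CpG pairs and no match. Among all promoters 48.9% held the Sp1 motif. Matches to the AP-1 motif TGANTCA (6.34% of all promoters), TATAAA (11.6%), CATTCC (12%), CACGTG (7.64%) and the NF-kappaB motif (2.84%) were also looked for on both strands, and none was in these 4 windows. A match is a description of the letters, and the binding of any factor was not measured.

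Library totals, as counts on genes, ranged from 15130210 to 30526110 for the border zone and from 20091415 to 31618680 for the remote zone. In the smallest, the border zone library of animal 3622, 28024 genes had a count, against 20148 in the next border zone library. Among the border zone libraries, that of animal 1022 had the lowest summed cardiomyocyte markers and the highest summed fibroblast, macrophage and smooth muscle markers, so fold changes that leaving out this animal moved by over 1.5 times are given with and without it. Levels are in CPM, counts scaled to the library size after TMM normalization. Of 13844 genes tested between the zones with edgeR's quasi-likelihood test, 2.06% were higher and 0.0144% lower in the border zone at an adjusted p-value under 0.05, and 0.289% were higher once the animal was kept as a block. The p-values measure the spread between the libraries of these 6 animals. Those of the fit without the block treat the libraries as independent, although they are paired by animal.

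Among the 5 tested members, 1 was called higher in the border zone and 0 lower by edgeR, against the 2.06% and 0.0144% of all genes. The called member was S100A6. With the animal as a block 0 were called, against 0.289% of all genes, with 3 higher and 0 lower at an unadjusted p under 0.05 (17% and 12.4% of all genes). Without the block, 4 were higher and 0 lower at an unadjusted p under 0.05, against 17% and 7.78% of all genes. The median log2 fold change over the 5 was 1.28, 1.27 with the block and 0.80 without animal 1022, beside 0.0378 over all genes tested. S100A6 and S100A10 had more CPM in the border zone library of each of the 6 animals, a pattern shown by 11.7% of all genes. S100A1 was lower in 5 of 6 animals, as were at least 5 of 6 for 25% of all genes. In none of the 5 did all border zone libraries lie above all remote zone libraries, which 1.99% of all genes did. In bulk tissue, fewer cells of a type and less RNA per cell cannot be told apart.

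**Figure D1:**
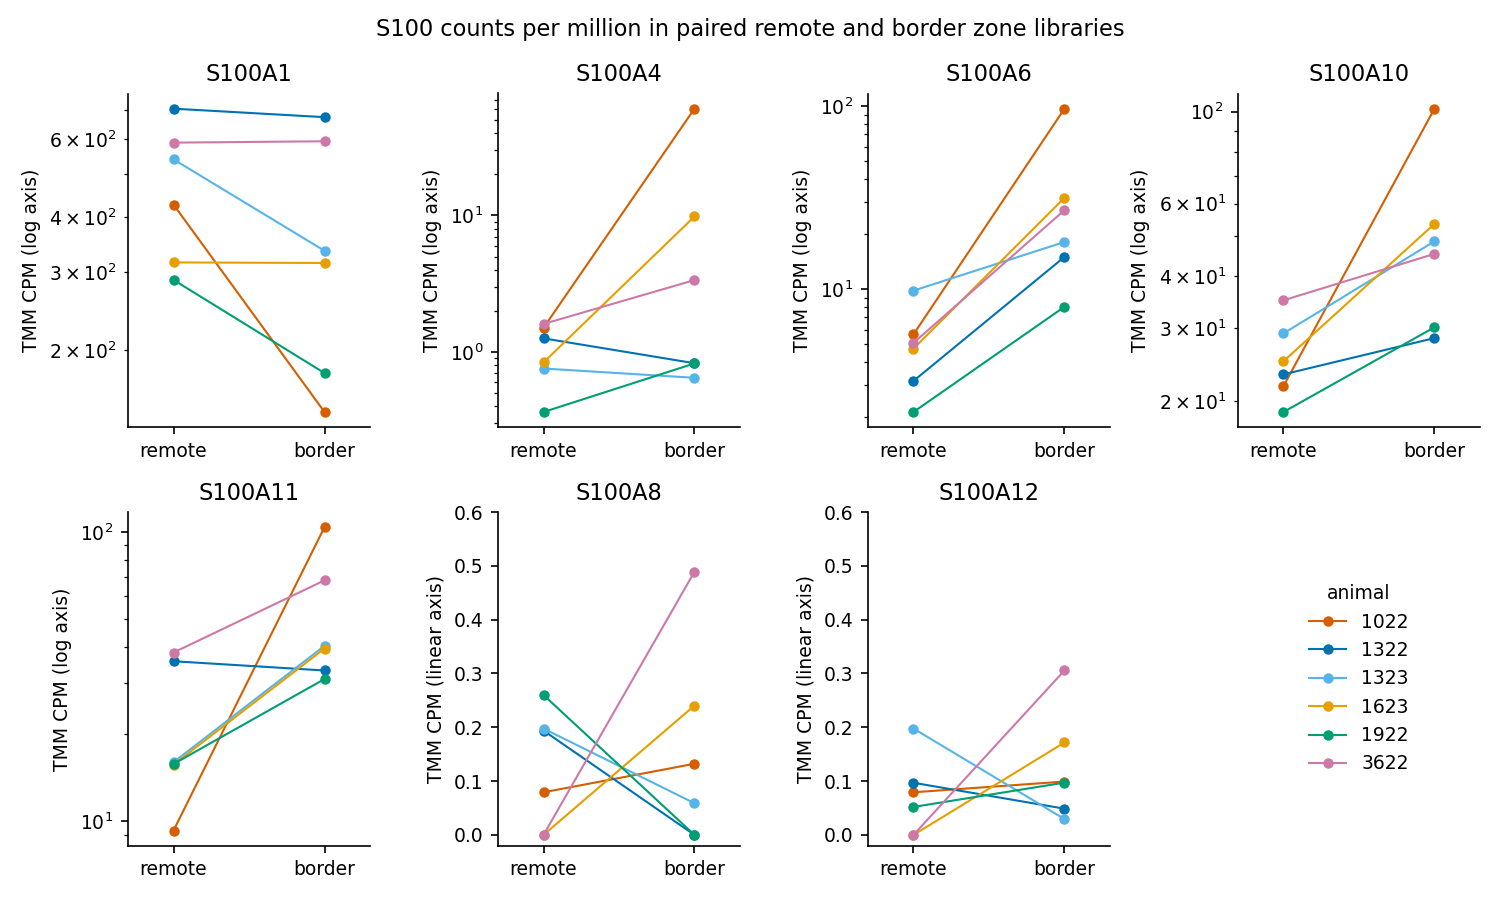
TMM-scaled CPM of the 7 S100 members in the remote and border zone library of each animal, each line joining the 2 libraries of 1 animal; the axis is logarithmic except for S100A8 and S100A12. S100A6 rose along all 6 lines, whereas the S100A1 lines were flat or sloped down, and animal 1022 ended highest for S100A4, S100A6, S100A10 and S100A11.

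S100A1, the cardiomyocyte member, was the most abundant per length of exon in the remote zone among the 7 members with an identifier, with a median of 420.4 CPM per kb, and the medians of S100A11, S100A10, S100A6 and S100A4 were 32.0, 29.1, 8.87 and 1.52 CPM per kb. On the CPM scale, S100A1 was at 288.5 in the lowest remote zone library (animal 1922), 483.9 at the median and 704.4 in the highest (animal 1322). In the border zone it was at 144.9 in the lowest library (animal 1022), 325.5 at the median and 673.9 in the highest (animal 1322). The zones overlapped over most of their range, and animal 1322 was highest in both. Within animals, the border zone minus remote zone difference in log2 CPM had a median of -0.38 and ran from -1.56 in animal 1022 to 0.01 in animal 3622. Animals 1322, 1623 and 3622 differed little between zones, and the lower border zone levels came from animals 1022, 1323 and 1922. The log2 fold change of S100A1 was -0.36 (standard error 0.37, adjusted p = 0.586 by edgeR), and -0.50 with the block (standard error 0.25, adjusted p = 0.214). Without animal 1022 it was -0.23 (standard error 0.36, adjusted p = 0.821) and the median within-animal difference was -0.06. Without the border zone library of animal 3622 the log2 fold change was -0.54.

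S100A6, known as calcyclin and found in fibroblasts and smooth muscle, rose in the border zone. It was at 2.13 CPM in the lowest remote zone library (animal 1922), 4.91 at the median and 9.81 in the highest (animal 1323). In the border zone the lowest library was at 8.01 (animal 1922), the median at 22.6 and the highest at 96.9 (animal 1022). Of the 6 border zone libraries, 5 lay above every remote zone library, and the exception was that of animal 1922, which was also lowest in the remote zone. The border zone level was between 1.84 times (animal 1323) and 17.1 times (animal 1022) that of the same animal's remote zone. The log2 fold change was 2.68 (standard error 0.55, adjusted p = 0.0328 by edgeR). With the animal as a block it was 2.38 (standard error 0.37, adjusted p = 0.0542), on the other side of the threshold. Without animal 1022 it was 1.98 (standard error 0.42, adjusted p = 0.0456), with 5 of 5 animals higher. Without animal 1323, 1623, 1922 or 3622 the log2 fold change was 3.07, 2.68, 2.72 and 2.72 and the adjusted p by edgeR was 0.0935, 0.119, 0.0631 and 0.102. In those fits the calls over all genes were 3, 0, 15 and 0.

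S100A10 and S100A11, the partners of annexin A2 and annexin A1, had higher medians in the border zone but did not pass the adjusted threshold of edgeR. Both passed with the DESeq2 Wald test (adjusted p = 0.025 and 0.0342) and with library totals in place of TMM scaling (adjusted p = 0.0245 and 0.0215 by edgeR). S100A10, also called p11, has lost calcium binding and stays in its open form. It was at 18.8, 24.1 and 35.03 CPM (lowest, median, highest) in the remote zone and at 28.4, 47.0 and 102 CPM in the border zone. Of the 6 border zone libraries, 4 lay above every remote zone library, and animal 1322 was the lowest of the 6. Its log2 fold change was 1.01 (standard error 0.28, adjusted p = 0.0704 by edgeR, and 0.89 with adjusted p = 0.0844 with the block), with 6 of 6 animals higher. Without animal 1022 the log2 fold change of S100A10 was 0.65 (standard error 0.22, adjusted p = 0.172).

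S100A11 was at 9.30, 15.9 and 38.4 CPM in the remote zone and at 31.1, 40.1 and 104 CPM in the border zone. Its remote zone libraries fell into a low set of 4 and a high pair, animals 1322 and 3622, which overlapped with the border zone. Animal 1322 was the 1 animal in which the border zone was not higher, at 0.929 times its remote zone, and animal 1022 went from the lowest remote zone level to the highest border zone level, 11.2 times higher. The log2 fold change was 1.28 (standard error 0.39, adjusted p = 0.086 by edgeR, and 1.27 with adjusted p = 0.098 with the block). Without animal 1022 it was 0.80 (standard error 0.32, adjusted p = 0.23).

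S100A4, the protein used as a marker of fibroblasts under the name FSP1 and also abundant in leukocytes, had the widest spread. In the remote zone it was between 0.364 and 1.61 CPM with a median of 1.05. In the border zone it was at 60.4 CPM in animal 1022, 9.82 in animal 1623, 3.36 in animal 3622, 0.828 in animal 1322, 0.825 in animal 1922 and 0.648 in animal 1323. Thus 3 border zone libraries lay above every remote zone library and the other 3 lay within the remote range, and 4 of 6 animals were higher in the border zone. The log2 fold change was 3.59 (standard error 1.07, adjusted p = 0.0816 by edgeR), and 1.79 with the block (standard error 0.84, adjusted p = 0.192). Without animal 1022 it was 1.68 (standard error 0.75, adjusted p = 0.275), with 3 of 5 animals higher. It passed with the DESeq2 Wald test (adjusted p = 0.0127) and with library totals (adjusted p = 0.035 by edgeR). The study displayed S100A4 among genes picked by comparing organoid with control animals in these border zone libraries, a comparison not made here, so its border zone values are not independent of that choice.

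The calgranulins S100A8 and S100A12, alarm proteins of neutrophils and monocytes, were at the limit of what these libraries could count. S100A8 had between 0 and 8 counts per border zone library and between 0 and 6 per remote zone library, 21 and 17 in sum, with 2 libraries at 0 in each zone. Pooled over a zone this was 0.139 CPM in the border zone (95% exact Poisson interval 0.0862 to 0.213) and 0.124 CPM in the remote zone (0.0725 to 0.199). S100A12 had 17 and 11 counts in sum, or 0.113 CPM (0.0656 to 0.18) and 0.0805 CPM (0.0402 to 0.144), and 2 remote zone libraries were at 0. A count of 0 allows up to 3 counts, which is between 0.0883 and 0.201 CPM depending on the library. The intervals cover counting error only, and the spread between animals adds to it. A difference between the zones was not detectable at this depth for either gene. In the fit without the filter the log2 fold changes were 0.21 for S100A8 (adjusted p = 0.922 by edgeR) and 0.66 for S100A12 (adjusted p = 0.717 by edgeR).

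The neutrophil markers were also low. Of 10 listed, 6 had an identifier, and their summed level was 1.26, 3.78 and 15.2 CPM (lowest, median, highest) in the border zone and 1.35, 2.71 and 3.64 CPM in the remote zone, higher in 5 of 6 animals. MPO was at 0 in every remote zone library and at most 0.033 CPM in the border zone. CXCR2, CAMP, CXCR1 and FPR1 had no identifier and were not analysed here.

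Among 9 further S100 genes that were looked for, 6 had an identifier and 2 were tested, and neither passed the adjusted threshold. S100A2, best known in epithelium, was at 0.052, 0.173 and 1.78 CPM in the remote zone and at 0.486, 1.98 and 5.09 CPM in the border zone, and was higher in 6 of 6 animals by a median of 2.20 in log2 CPM. In 4 of the 6 remote zone libraries it had 1 to 3 counts, at the limit of counting, so these differences depend on the prior count. Its log2 fold change was 2.07 (standard error 0.76, adjusted p = 0.128 by edgeR), and 2.55 with the block (standard error 0.42, adjusted p = 0.0564). S100A14 was higher in 4 of 6 animals, and its log2 fold change was 1.35 (standard error 0.61, adjusted p = 0.194 by edgeR), and 0.76 without animal 1022. S100A3, which lies 1.27 kb from S100A4, had 46 counts over the 6 border zone libraries, at least 1 in each, and 1 count over the 6 remote zone libraries. The ratio after scaling was 41.7 (95% exact counting interval 7.12 to 1680), with adjusted p = 0.0882 by edgeR in the fit without the filter. S100A5 had 1 count, S100Z 2 and S100G 0 in all libraries together, and S100A7, S100A16 and S100P had no identifier.

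**Figure D2:**
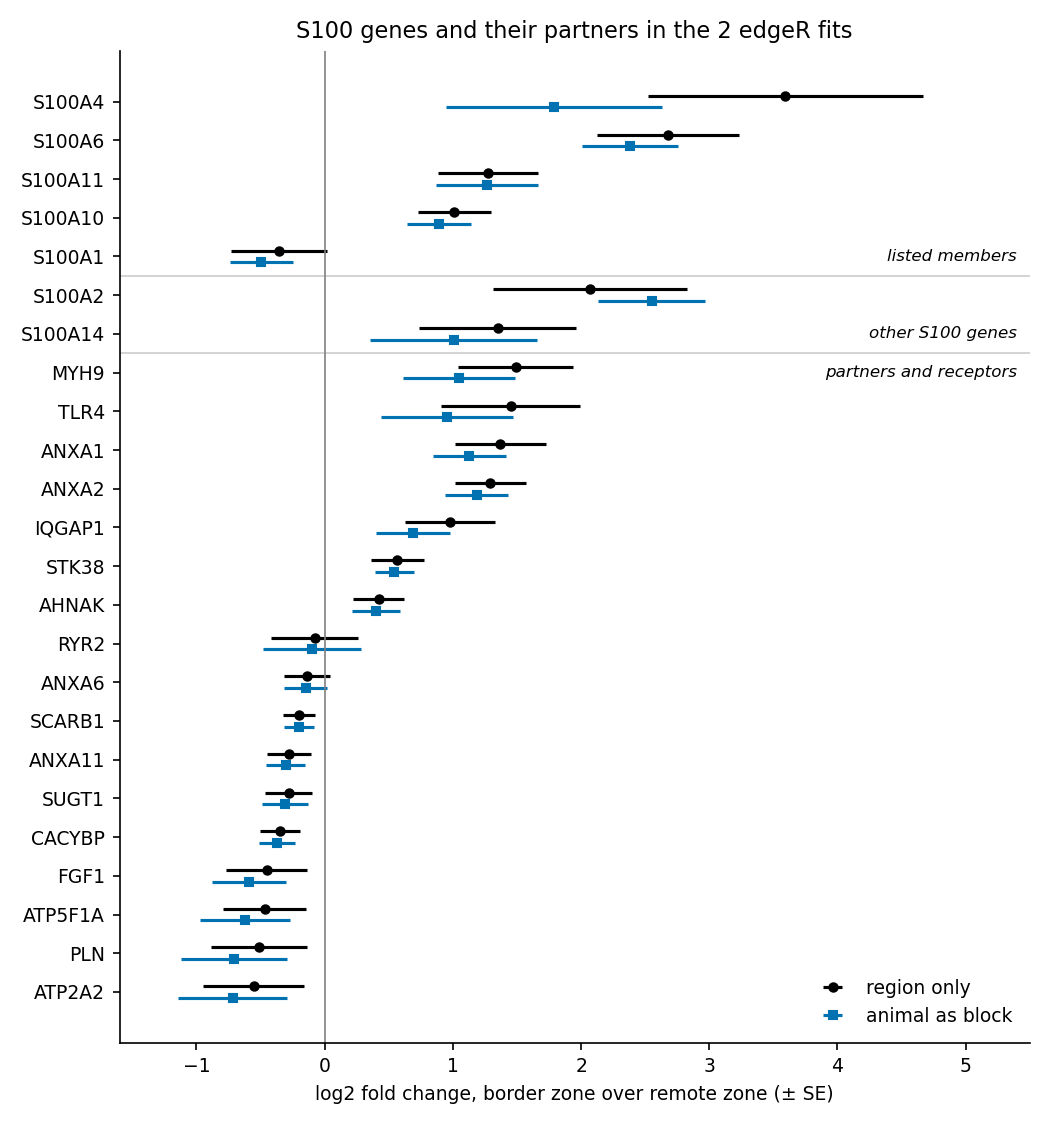
Log2 fold changes, border zone over remote zone, with standard errors, of S100 genes and partners that passed the filter, from edgeR fits of 12 libraries with region only (circles) or with the animal as a block (squares). S100A4, S100A6, S100A10 and S100A11 lie to the right of 0 and S100A1 to the left, and the S100A4 estimate drops from 3.59 to 1.79 with the block.

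The make-up of the S100 transcripts per length of exon differed between the zones. S100A1 was 79.3%, 82.5% and 86.5% (lowest, median, highest) of the summed CPM per kb of the 7 members in the remote zone, and 17.4%, 60.0% and 81.9% in the border zone, where the lowest was 55.8% without animal 1022. In 6 of 6 animals the share was lower in the border zone library, and animal 1322 had the border zone library closest to the remote zone. The share of S100A6 was 0.79%, 1.91% and 3.18% in the remote zone and 3.79%, 6.71% and 24.3% in the border zone, where the highest was 11.6% without animal 1022. These ranges did not overlap. S100A1 exceeded S100A6 between 26.5 and 107 times per kb in the remote zone. In the border zone the ratio was 0.718 in animal 1022, 4.8 in animal 1623, 8.91 in animal 1323, 10.6 in animals 1922 and 3622 and 21.6 in animal 1322, all below the lowest remote zone ratio. The order of the border zone medians was S100A1 (282.8 CPM per kb), S100A11 (80.6), S100A10 (56.8), S100A6 (40.8) and S100A4 (3.03), the same as in the remote zone. In the remote zone S100A10 and S100A11 were the neighbours in that order whose ranges overlapped, and in the border zone every pair of neighbours overlapped. Without animal 1022, the border zone ranges of S100A1 (lowest 154.3 CPM per kb) and S100A11 (highest 137.1) did not overlap. Neither did those of S100A6 (lowest 14.49) and S100A4 (highest 14.21).

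**Figure D3:**
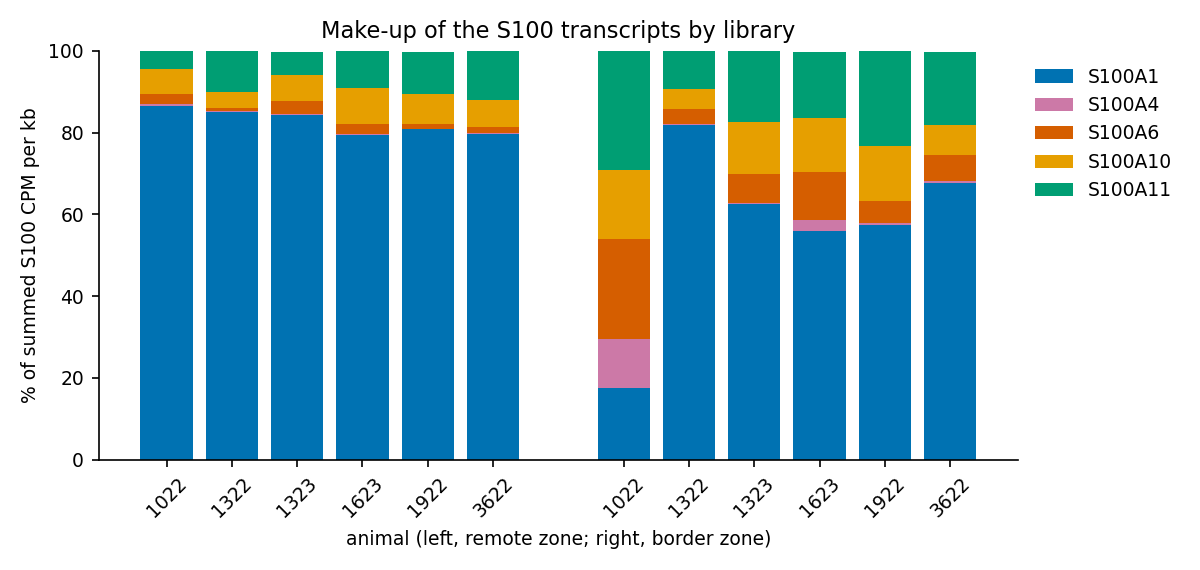
Share of each of 5 members in the summed CPM per kb of the 7 S100 members, in percent, for the 6 remote zone libraries (left) and the 6 border zone libraries (right); S100A8 and S100A12 are too small to be seen. S100A1 fills 79.3% to 86.5% of the remote zone bars and 17.4% of the border zone bar of animal 1022.

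The cardiomyocyte member and the widely expressed members were set against each other within each animal, as the border zone minus remote zone difference of S100A1 minus the mean difference of S100A4, S100A6, S100A10 and S100A11, in log2 CPM. The contrast has no test here, since the members were chosen as a list. It was -5.32 in animal 1022, -2.15 in 1623, -1.84 in 1922, -1.37 in 1323, -1.15 in 3622 and -0.53 in 1322, with a median of -1.61 and 6 of 6 animals below 0. In animals 1623 and 3622 S100A1 differed by -0.004 and 0.01, and the other 4 members by a mean of 2.14 and 1.16. In animals 1323 and 1922 S100A1 was lower by about the same amount, with differences of -0.69 and -0.70, and the other members were higher by 0.69 and 1.14. It is a difference of genes within libraries, so a library's scaling enters it only through the prior count, and medians with prior counts of 0.5 and 5 were -1.62 and -1.58. Without animal 1022 the median contrast was -1.37.

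**Figure D4:**
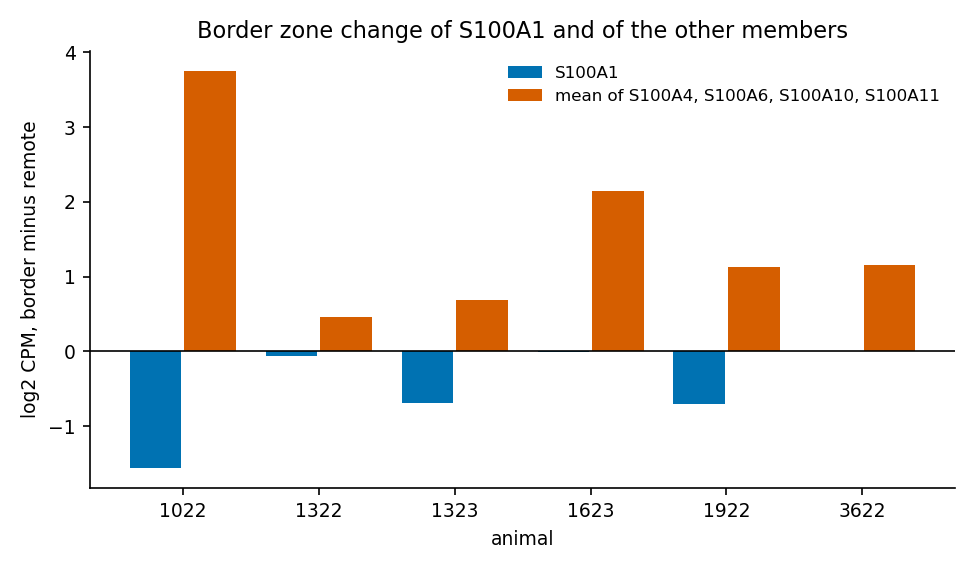
Border zone minus remote zone difference in log2 CPM of S100A1 and of the mean of S100A4, S100A6, S100A10 and S100A11, for each of 6 animals. The bar of the 4 members lies above 0 in every animal, from 0.46 in animal 1322 to 3.76 in animal 1022, and that of S100A1 lies below it in each.

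Of 24 listed partners and receptors of S100 proteins, 20 had an identifier and 18 were tested. By edgeR 1 was called higher in the border zone and 0 lower, against 2.06% and 0.0144% of all genes, and 0 were called with the block. At an unadjusted p under 0.05, 6 were higher and 1 lower, against 17% and 7.78% of all genes, and with the block 5 were higher and 1 lower, against 17% and 12.4%. Their median log2 fold change was -0.11, and 0.03 without animal 1022. All border zone libraries lay above all remote zone libraries for 4 of the 18, beside 1.99% of all genes, 6 were higher in all 6 animals, beside 11.7%, and 3 (ANXA11, CACYBP and FGF1) were lower in all 6, beside 1535 of the 13844 genes tested. TTN, BSG, CD36 and CD33 had no identifier, and IL1A and AGER fell below the filter.

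The called partner was ANXA2, annexin A2, which joins S100A10 in a complex at the cell membrane. It was at 70.9, 97.5 and 112 CPM (lowest, median, highest) in the remote zone and at 130, 211 and 446 CPM in the border zone, without overlap. The log2 fold change was 1.29 (standard error 0.28, adjusted p = 0.0338 by edgeR, and 1.19 with adjusted p = 0.0732 with the block), with 6 of 6 animals higher. Without animal 1323, 1623, 1922 or 3622 the adjusted p by edgeR was 0.137, 0.125, 0.0756 and 0.105, and without the border zone library of animal 3622 alone it was 0.0582. ANXA1, the partner of S100A11, was at 14.5, 21.1 and 24.8 CPM in the remote zone and at 29.7, 33.4 and 133 CPM in the border zone, also without overlap. Its log2 fold change was 1.37 (standard error 0.35, adjusted p = 0.056 by edgeR), and 1.13 with the block (adjusted p = 0.0814 by edgeR). The log2 fold change of ANXA1 was 0.86 without animal 1022 (adjusted p = 0.0782 by edgeR), and 0.85 without the border zone library of that animal alone (adjusted p = 0.0382 by edgeR). ANXA1 passed with the DESeq2 Wald test (adjusted p = 0.00785) and with library totals (adjusted p = 0.025 by edgeR). AHNAK, a large scaffold bound by S100A10 with annexin A2, had 0.42 (adjusted p = 0.209 by edgeR). ANXA11 and ANXA6, partners of S100A6 and S100A1, had -0.28 and -0.14, and neither passed. The value of ANXA6 was -0.04 without animal 1022 and -0.22 without animal 1322. Over the 5 annexin partners the median was 0.42.

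MYH9, the heavy chain of non-muscle myosin IIA to which S100A4 binds, was at 101, 146 and 190 CPM in the remote zone and at 194, 247 and 1284 CPM in the border zone, without overlap. Its log2 fold change was 1.49 (standard error 0.45, adjusted p = 0.0824 by edgeR), and 1.05 with the block (adjusted p = 0.156 by edgeR). With library totals the adjusted p by edgeR was 0.0323. The difference within animals ran from 0.03 in animal 1322 to 3.66 in animal 1022. Without animal 1022 the log2 fold change of MYH9 was 0.61 (adjusted p = 0.0921 by edgeR), and without its border zone library alone 0.70 (adjusted p = 0.0495 by edgeR). IQGAP1, a scaffold of the cell cortex bound by S100B, did not overlap between the zones either. Its log2 fold change was 0.98 (adjusted p = 0.125 by edgeR), 0.69 with the block (adjusted p = 0.155 by edgeR) and 0.38 without animal 1022. CACYBP and SUGT1, bound by S100A6, had -0.35 and -0.28 and did not pass. SUGT1 was at -0.17 without animal 1022. STK38 and FGF1 had 0.57 and -0.45 and did not pass, and FGF1 was at -0.27 without animal 1022. Of the receptors, TLR4 had 1.45 (standard error 0.54, adjusted p = 0.132 by edgeR) with 5 of 6 animals higher, but 0.95 with the block and 0.61 without animal 1022 (adjusted p = 0.483 by edgeR). SCARB1 had -0.20 (adjusted p = 0.336 by edgeR), and -0.31 without animal 1323, and AGER had between 0 and 8 counts per library.

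The targets of S100A1 in the myocyte had lower medians in the border zone, and none of the 4 tested passed by edgeR, with 0 of 4 at an unadjusted p under 0.05. ATP2A2, the calcium pump of the sarcoplasmic reticulum, was at 1802, 3168 and 3715 CPM in the remote zone and at 477, 2008 and 3186 CPM in the border zone. Its log2 fold change was -0.55 (standard error 0.40, adjusted p = 0.401 by edgeR). PLN, phospholamban, which restrains that pump, had -0.51 (standard error 0.38, adjusted p = 0.415 by edgeR), and ATP5F1A, a subunit of the mitochondrial ATP synthase, had -0.47 (standard error 0.32, adjusted p = 0.385 by edgeR). RYR2, the calcium release channel, had -0.08 (standard error 0.34, adjusted p = 0.91 by edgeR), and its direction changed with library totals in place of TMM scaling and without animal 1022. Without animal 1022 the log2 fold changes of ATP2A2, PLN and ATP5F1A were -0.31, -0.29 and -0.29, and without animal 1322 that of ATP2A2 was -0.85. Animal 1022 was the lowest border zone library for all 4, and each of ATP2A2, PLN and ATP5F1A was lower in 5 of 6 animals.

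Cell type markers were summed in the same libraries. The summed level of 9 cardiomyocyte markers was 56620, 62530 and 96480 CPM (lowest, median, highest) in the remote zone and 12670, 48130 and 67100 CPM in the border zone, lower in 6 of 6 animals, with 0 of 9 called by edgeR. They were abundant in both zones, as the label of heart tissue says. The 9 fibroblast and matrix markers summed to 1029, 1624 and 2575 CPM in the remote zone and to 3021, 8366 and 66690 CPM in the border zone without overlap. Of the 9, 8 were called higher by edgeR, against 2.06% of all genes. The 10 macrophage markers summed to 123, 159 and 263 CPM and to 136, 309 and 1555 CPM, higher in 5 of 6 animals, with 0 called. The sum of the 7 smooth muscle markers was higher in 5 of 6 animals, with 0 called. That of the 10 Schwann cell markers was higher in 6 of 6, with 1 called by edgeR, NGFR. The median log2 fold changes over these lists were 1.54 and 0.83, but not all markers were higher. SMTN and MYOCD of the smooth muscle list had -0.57 and -0.35, and MBP and CDH19 of the Schwann cell list -0.3 and -0.04. The sum of the 8 endothelial markers was higher in 3 of 6 animals and that of the 5 adipocyte markers in 3 of 6. The adipocyte sum was mostly FABP4, with a log2 fold change of -0.46, while the median over its 4 tested markers was 2.06, and 0 of them were called. No marker with an identifier was at 0 in all 12 libraries.

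Beside the S100 genes, the fibroblast and matrix sum differed by 6.02 in log2 CPM in animal 1022 and by 0.83 in animal 1322, the animals with the greatest and the least contrast between S100A1 and the other members. The cardiomyocyte sum differed by -2.23 and -0.36 in the same animals. In animal 3622, however, the cardiomyocyte sum differed by -0.83 and S100A1 by 0.01, and in animal 1922 the fibroblast and matrix sum differed by 3.02 while S100A6 differed by 1.87, less than the 2.22 of animal 1322. The macrophage sum differed by 3.21 in animal 1022 and 1.26 in animal 1623, the animals with the highest border zone S100A4, and by -0.22 in animal 1322, where S100A4 differed by -0.56. The order broke in animal 1323, with a macrophage sum of 0.87 and S100A4 at -0.20, beside 0.50 and 0.30 in animals 1922 and 3622, where S100A4 differed by 1.02 and 1.03. The part of these cell types in the S100 differences was not tested.

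**Figure D5:**
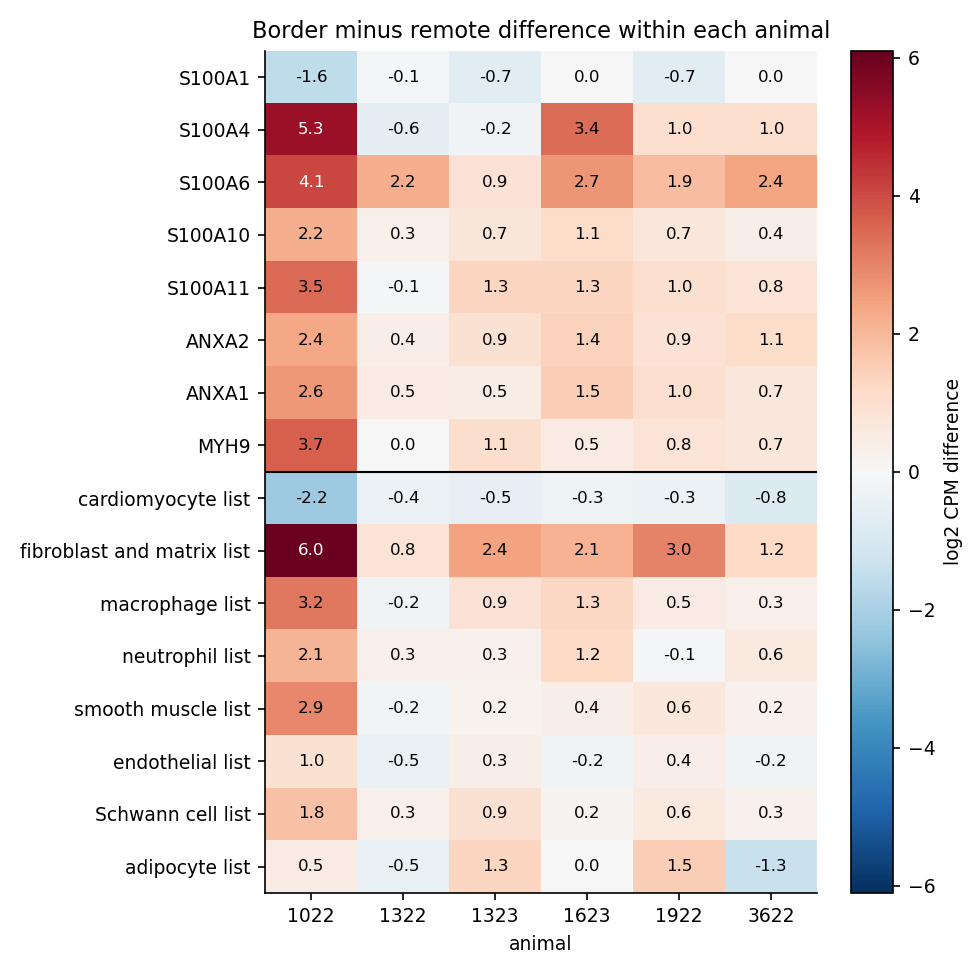
Border zone minus remote zone difference in log2 CPM for 8 genes (upper rows) and for the summed level of 8 marker lists (lower rows) in each of 6 animals, with the value in each cell. Animal 1022 has the darkest cells in most rows, from 6.0 for the fibroblast and matrix list to -2.2 for the cardiomyocyte list, and S100A6 is above 0 in every animal.

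Genes with the most similar profile were named by the root mean square distance of centred log2 CPM over the 12 libraries, among 11725 tested genes with a symbol. The nearest to S100A1 were LSMEM1 (0.284), PDIA2 (0.285) and NIPSNAP3A (0.302), beside a standard deviation of S100A1 itself of 0.71. S100A4 varied more, with a standard deviation of 1.89, and its nearest were MPEG1 (0.689), the carboxypeptidase M gene (0.701) and PLEK (0.72). S100A11, with a standard deviation of 0.936, was nearest to CRACR2B (0.298), DTX4 (0.323) and ADAMTSL2 (0.328). These distances describe likeness over libraries that share animals and depth, and carry no test.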

How the data were processed

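Gene expression was measured in 12 libraries of pig heart, from 6 border and 6 remote zone samples. The authors enriched poly(A) RNA without keeping the strand, aligned paired reads to Sscrofa11.1 with STAR and counted them on genes with featureCounts, and they deposited raw counts per gene without normalization. How reads that match several genes were counted is not given in the sources used here. Totals were 15130210 to 31618680 counts per library, and 3 counts correspond to 0.0883 to 0.201 CPM.

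The sample labels gave the zone and the animal. The S100 members and the lists of partners and markers were chosen with earlier results of these data known. All listed S100 genes, partners and receptors are named whatever their values, except 1 partner, and that gene and 1 promoter are not reported here; the 3 nearest profiles are given for S100A1, S100A4 and S100A11. Symbols came from a table that paired 15623 of 35682 identifiers. Exon lengths, positions and promoters came from RefSeq on Sscrofa11.1, read with pysam 0.24.0.

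Counts were filtered with filterByExpr, scaled with TMM and tested over 13844 genes in R 4.3.3 with the quasi-likelihood test of edgeR 4.0.16 (robust, Benjamini-Hochberg adjustment, threshold 0.05), fitting region alone. Standard errors are log2 fold changes over the square root of F. Log2 CPM used a prior count of 2. Libraries with the same number are from the same animal and hence paired; their deviations from the zone means correlated across genes with a mean r of 0.345, over 0.1 in 4 of 6 animals. Alternatives were the animal as a replicate block, DESeq2 1.42.0, other scalings and filters, 13 mitochondrial genes left out, animals or border zone libraries left out, and other prior counts. The steps were tested on counts simulated without an animal effect, which cannot decide between the fits with and without the block. Figures were drawn with matplotlib 3.10.9.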

Additional observations from a re-analysis of the deposited data

Results flagged for a closer look

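In 5 of 21 sets of 6 values, the highest or lowest value stood apart by Dixon's ratio, of which chance sets apart about 1 in 20. Of these, 4 concern animal 1022 and are not independent. In its border zone library S100A4 was at 60.4 CPM (next 9.82), S100A6 at 96.9 CPM (next 31.6) and S100A10 at 102 CPM (next 53.6). The contrast of S100A1 with the other members was -5.32 in that animal, against -2.15 in the next. On the log2 scale 0 of the tested genes' sets stood apart. The remote zone library of animal 3622 was at 0.0669 CPM for S100A3, where the other 5 were at 0, and that value is 1 count.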

How the results depend on the processing

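Of the 5 tested members, 1 was called by the quasi-likelihood test of edgeR, and the called count depended on the settings. It was 0 with the animal as a replicate block (3 at an unadjusted p under 0.05), 4 with the DESeq2 Wald test, 4 with library totals alone and 0 without the filter (4 unadjusted). With animals or border zone libraries left out it ranged from 0 to 1, and was 0 without animal 1323, 1623, 1922 or 3622, with 4 of the members at an unadjusted p under 0.05 each time. The count of partners called, 1 in the test as reported, was 0 with the block (6 unadjusted). With DESeq2 it was 2 (ANXA2 and ANXA1) of 16 partners given an adjusted p, and MYH9 and IQGAP1 were given none. With library totals it was 3 (ANXA2, ANXA1 and MYH9). With libraries left out the count ranged from 0 to 3. It was 3 without the border zone library of animal 1022, and 0 without the border zone library of animal 3622 or without animal 1323, 1623, 1922 or 3622 (5 to 7 unadjusted). S100A6 and ANXA2 each passed in 9 of 15 alternatives, with adjusted p from 5.15e-05 to 0.119 and from 0.00077 to 0.137. DESeq2 gave S100A4, S100A10 and S100A11 an adjusted p of 0.0127, 0.025 and 0.0342, and library totals 0.035, 0.0245 and 0.0215. Library totals moved the median of all genes from 0.0378 to 0.317; relative to it the log2 fold changes were -0.38 for S100A1, 3.78 for S100A4, 2.74 for S100A6, 1.07 for S100A10 and 1.40 for S100A11. Over all genes the calls were 287, against 41 with the block, 1719 with DESeq2, 1551 with library totals, 139 without the filter, 149 at 10 counts in every library and 0 (without animal 1623 or 3622) to 519 (without animal 1322) with an animal left out.

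None of the 5 tested members changed direction in the alternatives run. Directions that turned were those of RYR2, at 0.12 with library totals and from -0.38 to 0.15 with libraries left out (0.15 without animal 1022 and 0.086 without its border zone library), ANXA6 at 0.12 and SCARB1 at 0.088 with library totals. The cause was not tested. The contrast of S100A1 with the other members had a median from -1.84 to -1.37 with each animal left out. The planned average that adds S100A13 was not run, since S100A13 had no identifier, and S100A4 could not be tested at 10 counts in every library. Depth limits S100A2, S100A3, S100A8, S100A12 and AGER.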
